A study of Mus musculus with 6 samples.

Results

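The miR-17-92 cluster and its paralog, the miR-106b-25 cluster, were examined in small RNA sequencing of small extracellular vesicles (sEV) released by mouse cochlear explants. Their guide arms, the strand of each hairpin that is mainly loaded onto Argonaute, were taken by name from the table of mature miRNAs. All 9 named arms were present, 6 of miR-17-92 and 3 of miR-106b-25, among the 810 miRNAs of the table. Explants of the cochlear sensory epithelium from postnatal day 3 ICR mice received either cisplatin, a platinum drug that damages auditory hair cells, at 50 µM (Cis-sEV) or the same volume of PBS (Ctrl-sEV) for 48 h. Both groups were grown in medium with fetal bovine serum depleted of sEV, and the labels name no transgene or altered gene in either. Each group had 3 samples, and each sample pooled the sEV of around 80 explants, so the values describe pools and not single animals. The question was which miRNAs of these clusters differed in level between the sEV of cisplatin-treated and PBS-treated explants.

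A polycistronic miRNA cluster is copied from the genome as one long primary transcript, from which Drosha cuts the hairpins and Dicer the mature strands. The miR-17-92 cluster is switched on by Myc and E2F factors and promotes proliferation and survival, in part by repressing the cell cycle inhibitor Cdkn1a and the pro-apoptotic protein Bim. The miR-106b-25 cluster lies in Mcm7, the gene of a subunit of the replicative helicase, and shares seeds and many of these targets with miR-17-92.

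All names are those of mouse (mmu) miRNAs, with the prefix left out after the first use. The 9 guide arms fall into groups by the seed, bases 2 to 8, which sets most of the pairing with target mRNAs. Their mature sequences are shown because arms that share a seed did not move together between the groups. They are RefSeq sequences of the assembly GRCm38.p6, identical to those in the deposited table, printed 5′ to 3′ with the seed in capitals. The first set comprised 4 arms with the seed of miR-17, from both clusters.
mmu-miR-17-5p: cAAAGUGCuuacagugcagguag
mmu-miR-20a-5p: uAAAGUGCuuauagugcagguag
mmu-miR-106b-5p: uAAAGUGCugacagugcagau
mmu-miR-93-5p: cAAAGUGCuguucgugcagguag

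The seed of miR-18a-5p differs from it by 1 base, and miR-19a-3p and miR-19b-3p share a seed of their own.
mmu-miR-18a-5p: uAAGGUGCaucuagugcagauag
mmu-miR-19a-3p: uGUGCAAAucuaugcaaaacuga
mmu-miR-19b-3p: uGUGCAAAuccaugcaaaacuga

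The last set contained the final arm of each cluster, miR-92a-3p and miR-25-3p, together with miR-92b-3p and miR-32-5p, which carry the same seed but come from other genes.
mmu-miR-92a-3p: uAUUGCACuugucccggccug
mmu-miR-25-3p: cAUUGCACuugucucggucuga
mmu-miR-92b-3p: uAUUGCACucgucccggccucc
mmu-miR-32-5p: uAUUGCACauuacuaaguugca

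Counted from the 5′ end, miR-92a-3p and miR-25-3p differed at 3 of 21 compared positions (U1C, C14U and C18U), and miR-92a-3p and miR-92b-3p at 2 (U10C and G21C). miR-19a-3p and miR-19b-3p differed at 1 position (U11C), and miR-17-5p and miR-20a-5p at 2 (C1U and C12U). A read with a sequencing error at such a position could be counted on the wrong arm.

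On GRCm38.p6, the 6 hairpins of miR-17-92 lie within 836 bases of chromosome 14 (chr14:115043671-115044506, plus strand), in an exon of the only annotated transcript of the lincRNA gene Mir17hg. Their order from the 5′ end is Mir17, Mir18, Mir19a, Mir20a, Mir19b-1 and Mir92-1. The 3 hairpins of miR-106b-25 lie within 498 bases of chromosome 5 (chr5:138165321-138165818, minus strand) on the same strand as Mcm7. Mir106b, Mir93 and Mir25 follow each other there, in an intron of 2 of the 10 annotated Mcm7 transcripts. Mir93 and Mir25 also fall in an exon of 1 other transcript. The same mature miR-19b-3p and miR-92a-3p are also encoded by Mir19b-2 (chrX:52741983-52742066) and Mir92-2 (chrX:52741838-52741928), so their reads cannot be assigned to 1 locus.

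**Figure D1:**
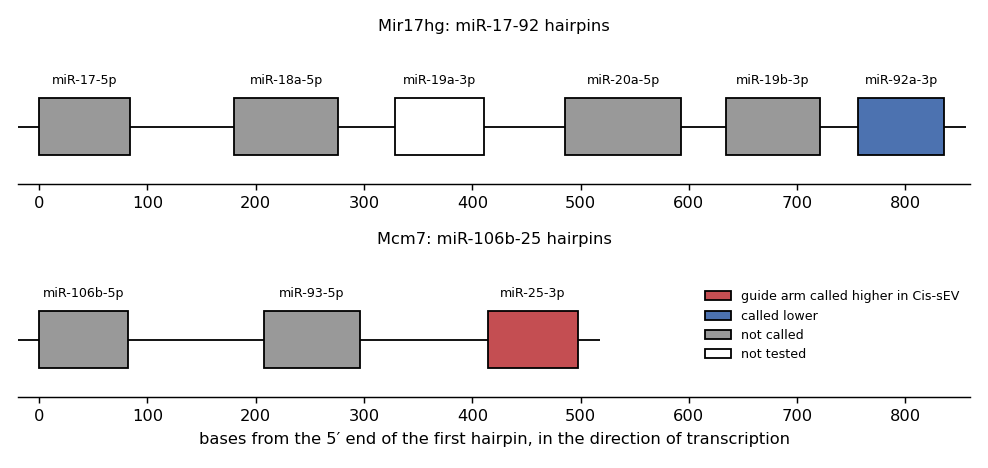
Hairpins of miR-17-92 in Mir17hg (top) and of miR-106b-25 in Mcm7 (bottom), placed by distance in bases from the 5′ end of the first hairpin, with each guide arm colored by its edgeR call. In each cluster the last hairpin carried the arm that was called, miR-92a-3p lower and miR-25-3p higher in Cis-sEV, while the other tested arms were not called.

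The Cis-sEV libraries held more miRNA reads, at 1722359 to 1794175 against 528952 to 718597 in Ctrl-sEV, a ratio of 2.97 between the group means. These counts do not give the full sequencing depth, and the paper reports a larger miRNA part among the sEV RNA categories in Cis-sEV. Levels are therefore given as CPM, the reads of a miRNA scaled to the miRNA total of its library. Only miRNA reads entered these levels, so each is a share of the miRNA reads, and fewer releasing cells and less RNA per vesicle cannot be told apart. Within a group, libraries varied beyond the sampling of reads (chi-square per degree of freedom 66.3 to 115 for each pair), and the biological coefficient of variation from edgeR was 0.370 in Cis-sEV and 1.58 in Ctrl-sEV. The hair cell miRNAs miR-183-5p, miR-96-5p and miR-182-5p together took 5.91% to 8.15% of the Cis-sEV reads and 5.5% to 5.58% of the Ctrl-sEV reads.

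In Cis-sEV, miR-92a-3p was lower and miR-25-3p was higher than in Ctrl-sEV, although both have the same seed. Of the 6 arms of low abundance, the groups overlapped for miR-19a-3p and miR-19b-3p. The other arms, miR-17-5p, miR-20a-5p, miR-18a-5p and miR-106b-5p, had a higher CPM in every Cis-sEV library than in any Ctrl-sEV library. So did 45.3% of the 353 miRNAs tested. After TMM scaling this no longer held for miR-18a-5p, and the share over all tested miRNAs was 37.7%. None of these arms was called by edgeR across replicates, and miR-19a-3p had too few reads to be tested. The middle arm of miR-106b-25, miR-93-5p, was likewise not called. Calls are those of edgeR's quasi-likelihood test and needed both an adjusted p no higher than 0.05 and a log2 fold change of 1 or more in size.

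Of the miR-17-92 arms, 5 of 6 passed the filter on low counts, 1 was called lower and 0 were called higher. Of the 3 miR-106b-25 arms, all passed the filter and 1 was called higher. Over the 353 miRNAs tested, 23.5% were called higher and 6.52% lower. At an unadjusted p under 0.05, edgeR had 1 arm of miR-17-92 higher and 1 lower, and 2 arms of miR-106b-25 higher. The share of all tested miRNAs at that limit was not computed, so these counts cannot be set against a background. DESeq2 called 1 arm of miR-17-92 and 2 of miR-106b-25 higher, where it called 18.9% of all miRNAs with an adjusted p higher and 5.07% lower. With limma-voom and group weights, 2 arms of each cluster were called higher, against 26.3% of all higher and 5.38% lower. With limma-voom alone, these were 0 of miR-17-92 and 1 of miR-106b-25, against 8.5% and 3.68%. Each of these tools called miR-92a-3p lower. In edgeR without Ctrl-sEV replicate 3, 2 arms of each cluster were called higher, against 32.7% of the miRNAs then tested, and without Ctrl-sEV replicate 1, 2 arms of miR-106b-25, against 23.7%. The median log2 fold change was 1.94 over the 8 tested arms and 0.44 over all miRNAs tested. However, miR-17-5p, miR-20a-5p, miR-18a-5p and miR-106b-5p, which edgeR did not call, passed the filter only through their Cis-sEV reads. The median over the arms therefore does not show a rise of the clusters.

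**Figure D2:**
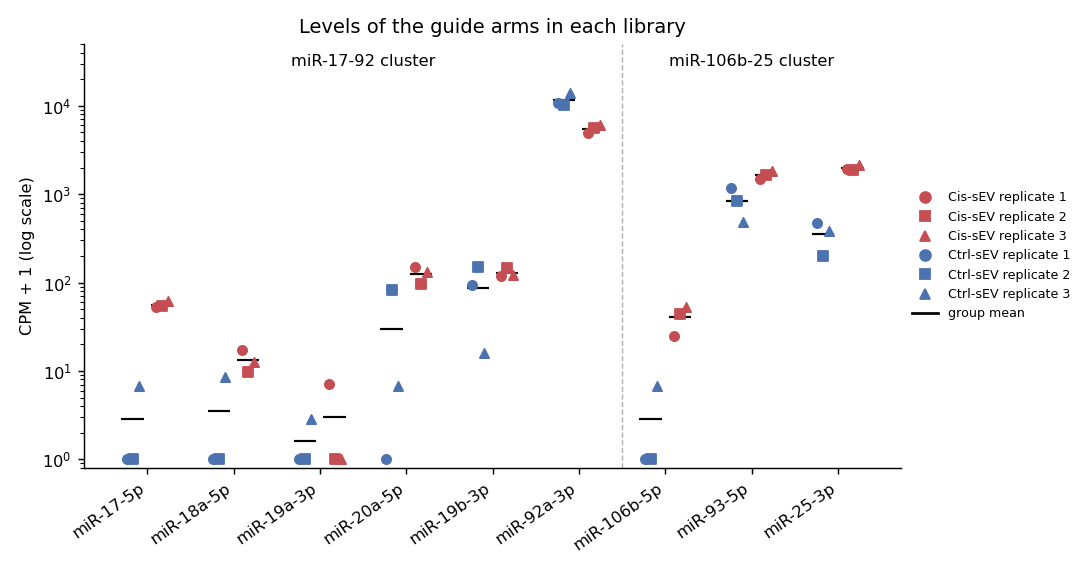
Level of each guide arm in each library, as CPM + 1 on a log scale, with Cis-sEV in red, Ctrl-sEV in blue, 1 symbol per replicate number and a black bar at the group mean. miR-92a-3p lay at 4891 to 6002 CPM in Cis-sEV against 10134 to 13807 CPM in Ctrl-sEV, while miR-25-3p lay at 1852 to 2121 CPM and at 196 to 471 CPM.

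mmu-miR-92a-3p, the last arm of miR-17-92 and a repressor of integrin subunit alpha 5 in endothelial cells, was the most abundant of the 9 arms in both groups. Its counts in Cis-sEV were 8762, 9684 and 10768 reads, or 4891, 5623 and 6002 CPM. In Ctrl-sEV it had 5782, 7282 and 7303 reads, or 10712, 10134 and 13807 CPM. Every Cis-sEV library thus held more reads of it and a smaller share of it than any Ctrl-sEV library. The mean level was 5505 ± 564 CPM in Cis-sEV against 11551 ± 1975 CPM in Ctrl-sEV (SD, n = 3 each), 2.10 times higher in Ctrl-sEV. The log2 fold change was -1.43 (SE 0.18, edgeR adjusted p = 0.00502). It ranked 38 by mean level in Cis-sEV and 20 in Ctrl-sEV.

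mmu-miR-25-3p, which closes miR-106b-25 and is known to repress Bim, moved the other way. Its counts were 3416, 3189 and 3806 reads in Cis-sEV and 254, 141 and 204 in Ctrl-sEV. These equal 1907, 1852 and 2121 CPM against 471, 196 and 386 CPM. The groups did not overlap, and the lowest Cis-sEV library stood well above the highest Ctrl-sEV library. The mean level was 1960 ± 142 CPM in Cis-sEV against 351 ± 140 CPM in Ctrl-sEV (SD, n = 3 each), a ratio of 5.59, with a log2 fold change of 2.07 (SE 0.42, edgeR adjusted p = 0.0105). By mean level it was placed 58 in Cis-sEV and 104 in Ctrl-sEV.

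mmu-miR-93-5p, the middle arm of miR-106b-25, carries the miR-17 seed and targets Cdkn1a. It was counted 2658, 2870 and 3308 times in Cis-sEV and 639, 596 and 254 times in Ctrl-sEV. As levels, these were 1484, 1666 and 1844 CPM against 1184, 829 and 480 CPM. The Cis-sEV libraries were all higher in CPM, but the groups overlapped once edgeR's TMM factors were applied. Its log2 fold change of 0.60 (SE 0.40) had an edgeR adjusted p of 0.345 and was not called. Without Ctrl-sEV replicate 1, the highest of its group, it was called at 1.05 (edgeR adjusted p = 0.0443).

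mmu-miR-106b-5p, the first arm of the same cluster, was far less abundant than its 2 neighbors. It had 43, 75 and 93 reads in Cis-sEV, or 24.0, 43.5 and 51.8 CPM, and 0, 0 and 3 reads in Ctrl-sEV, or 0, 0 and 5.67 CPM. At the mean Cis-sEV level of 39.8 CPM, the Ctrl-sEV libraries would have held 21.5, 28.6 and 21 reads. The pooled reads gave a ratio of 23.7 between the groups (95% Clopper-Pearson interval 7.99 to 116, counting error only). The log2 fold change of 4.06 (SE 1.5) did not pass the correction in edgeR, with a p of 0.0305 and an adjusted p of 0.0779. Without Ctrl-sEV replicate 3, the only control library with reads, the controls held 0 reads and it was called (edgeR adjusted p = 0.0197). Against a floor of 3 reads over the group it was then 16.7-fold higher in Cis-sEV, a bound for those libraries only. Without any other single library it was not called (edgeR adjusted p 0.124 to 0.174), and the pooled ratio fell to 14.2 without Ctrl-sEV replicate 2. DESeq2 called it with all libraries (adjusted p = 0.0364), as did limma-voom with group weights (adjusted p = 0.0112). Limma-voom without weights did not (adjusted p = 0.526). Nor did edgeR with the replicate number as a block (adjusted p = 0.239) or with no filter (adjusted p = 0.186).

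mmu-miR-17-5p, the founding member of the seed family and a repressor of E2F1 and Cdkn1a, had a similar pattern. Cis-sEV libraries contained 92, 92 and 108 of its reads, or 51.4, 53.4 and 60.2 CPM. Ctrl-sEV libraries contained 0, 0 and 3, or 0, 0 and 5.67 CPM. The 3 Cis-sEV libraries were close to each other, at 55 ± 4.6 CPM (SD, n = 3), and 29.7, 39.5 and 29.1 reads would have been counted in the Ctrl-sEV libraries at that level. The pooled reads gave a ratio of 32.8 (95% Clopper-Pearson interval 11.1 to 160). The log2 fold change was 4.53 (SE 1.62), with an edgeR p of 0.0269 and an adjusted p of 0.0720, so the arm was not called. It was called without Ctrl-sEV replicate 3 (edgeR adjusted p = 0.0175), which left 0 control reads. Against a floor of 3 reads over the group it was then 23.1-fold higher in Cis-sEV, a bound for those libraries only. It was not called without any other single library (edgeR adjusted p 0.091 to 0.169), and the pooled ratio was 19.6 without Ctrl-sEV replicate 2. With all libraries it was called by DESeq2 (adjusted p = 0.0114) and by limma-voom with group weights (adjusted p = 0.00414). It was not called by limma-voom without weights (adjusted p = 0.370). Nor was it by edgeR with the replicate number as a block (adjusted p = 0.223) or with no filter (adjusted p = 0.142).

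mmu-miR-20a-5p, which differs from miR-17-5p by 2 bases, had 267, 164 and 232 reads, or 149, 95.2 and 129 CPM, in the Cis-sEV libraries. Ctrl-sEV libraries held 0, 58 and 3 reads (0, 80.7 and 5.67 CPM), so Ctrl-sEV replicate 2 alone came close to the Cis-sEV range. The log2 fold change was 1.91 (SE 1.74, edgeR adjusted p = 0.525). Without Ctrl-sEV replicate 2 the ratio of pooled reads rose from 3.66 to 44.5 (95% Clopper-Pearson interval 15.2 to 216), yet the edgeR adjusted p was 0.0512 and the arm stayed uncalled. Limma-voom with group weights called it with all libraries (adjusted p = 0.0244). DESeq2 (adjusted p = 0.442) and limma-voom without weights (adjusted p = 0.0937) did not.

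mmu-miR-18a-5p, for which thrombospondin 1 is a known target, was near the limit of these libraries. It had 29, 15 and 21 reads in Cis-sEV and 0, 0 and 4 in Ctrl-sEV, where 3 reads correspond to 1.67 to 1.74 and 4.17 to 5.67 CPM. The CPM ranges, 8.71 to 16.2 and 0 to 7.56, did not overlap, but those scaled by TMM did. Its log2 fold change of 1.97 (SE 1.28) was not called (edgeR adjusted p = 0.335). When any single Cis-sEV library was left out, or with a minimum of 30 reads, the arm fell below the filter and was not tested. It was called without Ctrl-sEV replicate 3 (edgeR adjusted p = 0.0277), which left 0 control reads. Against a floor of 3 reads over the group it was then 5.14-fold higher, a bound for those libraries only. With all libraries the pooled ratio was 5.47 (95% Clopper-Pearson interval 2.04 to 20.7), and it was 3.27 without Ctrl-sEV replicate 2.

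The 2 miR-19 arms showed no shift that could be resolved. miR-19b-3p had 208, 247 and 218 reads in Cis-sEV (116, 143 and 122 CPM) and 50, 108 and 8 in Ctrl-sEV (92.6, 150 and 15.1 CPM). Its highest and its lowest level were both in Ctrl-sEV, and the log2 fold change was 0.23 (SE 1.07, edgeR adjusted p = 0.927), with a sign that changed to -0.19 without Ctrl-sEV replicate 3. miR-19a-3p had 11, 0 and 0 reads in Cis-sEV and 0, 0 and 1 in Ctrl-sEV. Its pooled ratio of 3.70 had a 95% Clopper-Pearson interval from 0.538 to 159. It was below the filter, and a difference was not detectable at this depth.

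**Figure D3:**
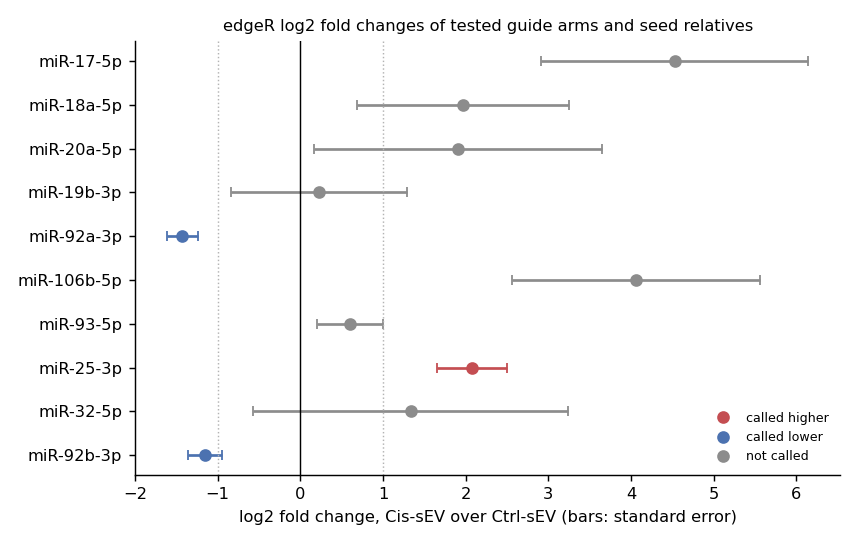
edgeR log2 fold change (x axis, Cis-sEV over Ctrl-sEV) of the 8 tested guide arms and of the seed relatives miR-32-5p and miR-92b-3p, with bars of 1 standard error and dotted lines at the limits of -1 and 1. The largest fitted changes, 4.53 for miR-17-5p and 4.06 for miR-106b-5p, have standard errors of 1.62 and 1.5 and were not called, while miR-92a-3p at -1.43 has a standard error of 0.18 and was.

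Across the 9 arms, every Cis-sEV library was above every Ctrl-sEV library in CPM for 6 and below for 1. The same held for 45.3% and 8.78% of the 353 miRNAs tested. With TMM-scaled CPM, 4 arms were above and 1 below, against 37.7% and 12.5%. The median log2 fold change of all tested miRNAs was 0.44 with TMM factors and 0.80 with total miRNA reads alone. Relative to that median, miR-92a-3p stood at -1.87 and -1.86 under the respective scalings and miR-25-3p at 1.64 and 1.69. The excess of miR-25-3p over the median was smaller under some other settings, at 0.98 with limma-voom, 0.91 with group weights and 0.99 without Ctrl-sEV replicate 2. With the replicate number as a block it was 0.67. It was 0.58 with DESeq2, where the median was taken over all 810 miRNAs and was 1.45. In edgeR with no filter it was -0.64, where the median over all 810 miRNAs was 2.68.

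The order of the levels also differed between the groups. In Cis-sEV it ran from miR-92a-3p to miR-25-3p, miR-93-5p, miR-19b-3p, miR-20a-5p, miR-17-5p, miR-106b-5p, miR-18a-5p and miR-19a-3p. Neighbors had separate ranges apart from miR-19b-3p with miR-20a-5p and miR-17-5p with miR-106b-5p. In Ctrl-sEV miR-93-5p came before miR-25-3p by a narrow margin (480 against 471 CPM at the nearest libraries), and below miR-19b-3p no neighbors had separate ranges.

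Summed by cluster, the miR-17-92 arms reached 5230, 5923 and 6324 CPM in Cis-sEV against 10804, 10365 and 13842 CPM in Ctrl-sEV. The mean was 2.00 times higher in Ctrl-sEV (5826 ± 554 against 11670 ± 1894 CPM, SD, n = 3 each). This total was nearly all miR-92a-3p. Without that arm, the other 5 arms summed to 339, 301 and 323 CPM in Cis-sEV against 92.6, 231 and 35.9 CPM in Ctrl-sEV, 2.68 times higher in Cis-sEV, so the direction of the total turned on a single arm. That ratio was 4.99 without Ctrl-sEV replicate 2, the highest of the control libraries, and 1.98 without Ctrl-sEV replicate 3, the lowest. The miR-106b-25 arms summed to 3415, 3561 and 4017 CPM in Cis-sEV against 1654, 1026 and 872 CPM in Ctrl-sEV. Their mean was 3.10 times higher in Cis-sEV (3664 ± 314 against 1184 ± 415 CPM, SD, n = 3 each).

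Within miR-17-92, miR-92a-3p took 93.5%, 94.9% and 94.9% of the reads in Cis-sEV and 99.1%, 97.8% and 99.7% in Ctrl-sEV. For the nearest libraries of the groups, the 95% Wilson interval ran from 94.5% to 95.3% in Cis-sEV replicate 2 and from 97.4% to 98.1% in Ctrl-sEV replicate 2. Within miR-106b-25, miR-25-3p took 55.8%, 52.0% and 52.8% of the reads in Cis-sEV and 28.4%, 19.1% and 44.3% in Ctrl-sEV. miR-93-5p was the largest arm of the cluster in all 3 Ctrl-sEV libraries, with 71.6%, 80.9% and 55.1%, and the second in all 3 Cis-sEV libraries, with 43.5%, 46.8% and 45.9%. In the shallowest case, Ctrl-sEV replicate 3 with 461 reads of the cluster, the 95% Wilson interval for miR-25-3p ran from 39.8% to 48.8%, still below the lowest Cis-sEV share. The differences between the groups were -4.44 points for miR-92a-3p and 22.9 points for miR-25-3p. A two-sided exact permutation test gave p = 0.1 for each, the smallest that 3 against 3 libraries allow (0.114 after Benjamini-Hochberg adjustment over 8 shares), so this design cannot pass a limit of 0.05.

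**Figure D4:**
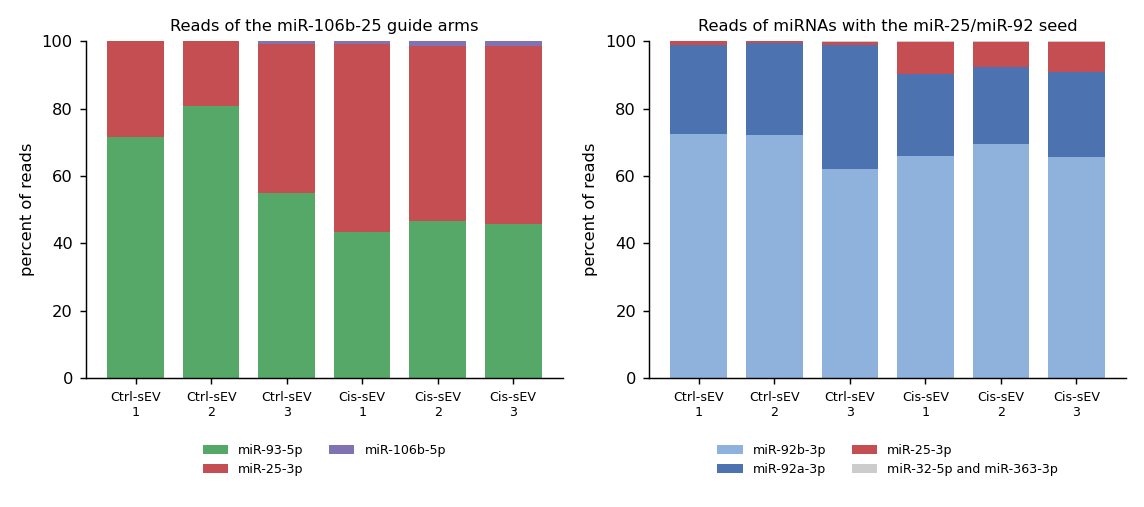
Percent of the reads in each library taken by each arm, for the miR-106b-25 guide arms (left) and for all 5 miRNAs with the seed of miR-25 and miR-92 (right). miR-25-3p takes 52.0% to 55.8% of the cluster in Cis-sEV against 19.1% to 44.3% in Ctrl-sEV, and 7.48% to 9.49% against 0.529% to 1.15% of the seed group.

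By seed, the 4 arms of the miR-17 group summed to 2.18 times more CPM in Cis-sEV, at 1708, 1858 and 2085 CPM against 1184, 910 and 497 CPM. The groups did not overlap in CPM, but they did once the TMM factors were applied. Most of these reads were miR-93-5p, which was not called. The miR-19 pair overlapped between the groups, at 122, 143 and 122 CPM against 92.6, 150 and 17 CPM. miR-92a-3p and miR-25-3p together were 1.59 times higher in Ctrl-sEV, at 6798, 7474 and 8123 CPM in Cis-sEV against 11182, 10330 and 14192 CPM in Ctrl-sEV. The opposite changes of these arms with the same seed therefore summed to the direction of the more abundant arm.

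mmu-miR-92b-3p, encoded by its own gene, was the most abundant miRNA with this seed. It had 23751, 29690 and 28143 reads in Cis-sEV and 15972, 19237 and 12348 in Ctrl-sEV, and mean levels of 15394 ± 2006 and 26568 ± 3128 CPM (SD, n = 3 each). It was called lower, with a log2 fold change of -1.16 (SE 0.21, edgeR adjusted p = 0.00625), as miR-92a-3p was. miR-32-5p, which differs from miR-25-3p at 9 positions and lies in another gene, had 45, 69 and 128 reads in Cis-sEV and 0, 0 and 23 in Ctrl-sEV and was not called (log2 fold change 1.33, SE 1.90, edgeR adjusted p = 0.705). All 5 miRNAs with the seed made up 2.01%, 2.48% and 2.39% of all miRNA reads in Cis-sEV against 4.08%, 3.71% and 3.76% in Ctrl-sEV.

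Ratios of reads within a library do not depend on how libraries are scaled. For each read of miR-92a-3p there were 0.390, 0.329 and 0.353 reads of miR-25-3p in Cis-sEV and 0.0439, 0.0194 and 0.0279 in Ctrl-sEV. This ratio was 12.4-fold higher in Cis-sEV (log2 difference 3.63), between 3.35 and 3.94 on the log2 scale with any 1 library left out. It sets the arm called higher over the arm called lower, so it restates their opposite changes and adds no separate support. The ratio of miR-25-3p to its cluster neighbor miR-93-5p was 1.29, 1.11 and 1.15 in Cis-sEV and 0.397, 0.237 and 0.803 in Ctrl-sEV, a 2.79-fold difference. The groups overlapped in neither ratio, the first between arms that share a seed and the second between arms of the same Mcm7 cluster.

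The ratio of miR-19b-3p to miR-92a-3p, neighbors at the end of miR-17-92, was 4.44-fold higher in Cis-sEV (log2 difference 2.15), and 1.03 on the log2 scale without Ctrl-sEV replicate 3. For miR-93-5p over miR-92a-3p the log2 difference was also 2.15, between 1.67 and 2.5 without single libraries. In contrast, miR-92a-3p over miR-92b-3p was 0.369, 0.326 and 0.383 in Cis-sEV and 0.362, 0.379 and 0.591 in Ctrl-sEV, with overlapping groups (log2 difference -0.27). Of the 5 ratios, this one had a two-sided exact permutation p of 0.5, and the others had 0.1, the smallest possible (0.125 after Benjamini-Hochberg adjustment).

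**Figure D5:**
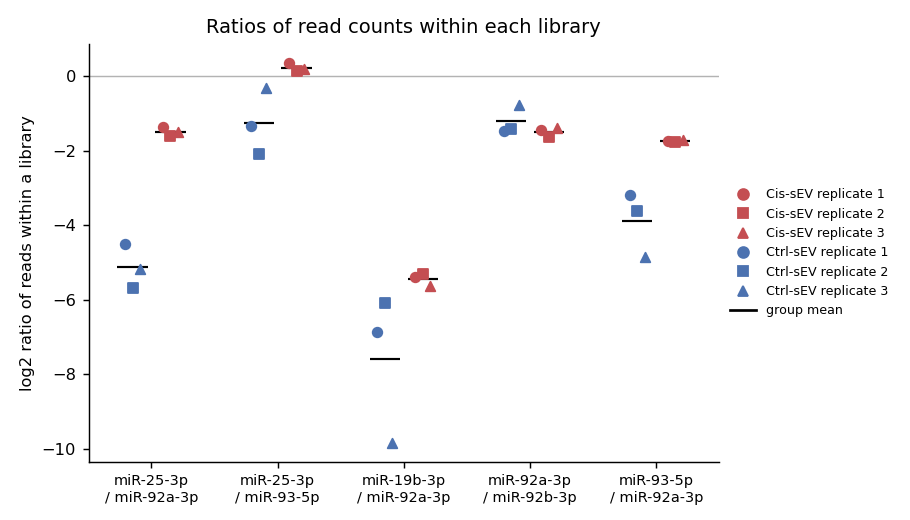
log2 ratio of the reads of pairs of miRNAs within each library (y axis), with Cis-sEV in red, Ctrl-sEV in blue and a black bar at the group mean. Of these ratios, which were chosen after seeing the data, that of miR-25-3p to miR-92a-3p, the arms called higher and lower, separates the groups most, by 3.63 on the log2 scale. That of miR-92a-3p to miR-92b-3p overlaps.

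The opposite arms of the same hairpins were rare. Of 9, 8 were in the table and none reached the filter. For hairpins whose guide comes from 1 locus, they made up between 0.220% (Mir25) and 41.4% (miR-18a-3p, 46 reads against 65 of its guide) of the reads of both arms in Cis-sEV. miR-18a-3p had 34, 0 and 12 reads in Cis-sEV and 0 in every Ctrl-sEV library. In Ctrl-sEV, such reads came in single libraries, with 71 of miR-19b-1-5p and 60 of miR-92a-1-5p in replicate 2 and 24 of miR-93-3p in replicate 1, and 0 in the other Ctrl-sEV libraries. The third paralog, miR-106a-363 on chromosome X (chrX:52741693-52742567, minus strand), also encodes miR-19b-3p and miR-92a-3p, as given above. Of the 10 arms specific to it, 5 were in the table, all below the filter, with 77 reads over all of Cis-sEV and 3 over all of Ctrl-sEV.

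Of 5 erythroid miRNAs, 4 were in the table and 3 were tested, of which 2 were called lower in Cis-sEV, miR-451a at -1.15 (edgeR adjusted p = 0.0219) and miR-486a-5p at -3.47 (edgeR adjusted p = 0.0111). The third tested, miR-486b-5p, was not called (log2 fold change -3.31, edgeR adjusted p = 0.0618), and miR-144-3p had 2 reads in 1 Cis-sEV library and 0 in the other libraries. The summed level of these 4 was 1158 to 1337 CPM in Cis-sEV against 1639 to 3604 CPM in Ctrl-sEV. The liver miRNA miR-122-5p was also called lower, from 6108 to 6797 CPM in Ctrl-sEV to 986 to 1451 CPM in Cis-sEV (log2 fold change -2.78, edgeR adjusted p = 0.0011). Of 5 leukocyte miRNAs, 3 were in the table and 2 were tested, and neither miR-155-5p nor miR-150-5p was called (edgeR adjusted p = 0.618 and 0.254), with a summed level of all 3 of 430 to 674 CPM in Cis-sEV against 399 to 561 CPM in Ctrl-sEV. Among the hair cell miRNAs, miR-96-5p was called higher (log2 fold change 2.08, edgeR adjusted p = 0.0142), at 23793, 11062 and 7279 CPM in the Cis-sEV libraries. In contrast, miR-183-5p had a lower CPM in every Cis-sEV library than in any Ctrl-sEV library. Its log2 fold change of -0.49 (edgeR adjusted p = 0.0419) was under the limit on size, so it was not called. The groups overlapped for miR-182-5p, which was not called (log2 fold change 0.18, edgeR adjusted p = 0.782). The part of these sources in the levels of miR-92a-3p and miR-25-3p was not tested.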

How the data were processed

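The authors purified RNA of miRNA length from sEV by gel electrophoresis, sequenced it on DNBSEQ, used Bowtie2 to map the reads to GRCm38.p6 (both also named in the submitters' processing notes) and annotated each read once, with miRBase taking precedence. The deposited values are raw counts of reads on each mature miRNA, with no normalization. The table also holds the authors' group means of these counts, carried as a score and not used. Whether reads were counted strictly by exact sequence is not given in the sources used here, and molecular identifiers are not mentioned, so intervals cover counting error only.

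Libraries were grouped by the treatment in the labels, and 0 columns were left out. The 9 arms, the related lists and the tests were chosen with earlier results of these data known. Counts were tested with edgeR 4.0.16 (R 4.3.3): quasi-likelihood fit, TMM factors, filterByExpr and Benjamini-Hochberg adjustment over the 353 tested miRNAs. The filter asked for at least 15 reads in all. It also asked for the CPM of 10 reads at the median library size, in at least as many libraries as the smaller group holds. Alternatives were DESeq2 1.42.0, limma-voom (limma 3.58.1) with and without group weights, other scalings and filters, a replicate block and each library left out. Cluster totals and ratios were computed in Python 3.11.15 with pandas 2.3.3 and numpy 2.4.6, exact tests in scipy 1.17.1, and plots in matplotlib 3.10.9. The 5 ratios, 6 of the 8 shares and the overlap of TMM-scaled levels were chosen after seeing the data. Named were the 9 arms, and among opposite arms, miR-106a-363 arms and miRNAs with a shared seed those with a mean of at least 10 reads in 1 group, with marker lists as counts and their called or tested members. The default fits of edgeR, DESeq2 and limma-voom with and without group weights were first run on simulated counts, and the other settings were not. The simulation gave both groups the same spread, whereas the biological coefficient of variation here was 0.370 in Cis-sEV and 1.58 in Ctrl-sEV. It therefore does not show how the tests behave on these data. Sequences and hairpin positions are from RefSeq, and host transcripts from GENCODE release M21 on GRCm38.p6. Samples are labelled as biological replicates; which mice the pools came from is not given in the sources used here.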

Additional observations from a re-analysis of the deposited data

How the results depend on the processing

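miR-92a-3p was called lower and miR-25-3p higher under all 17 settings, at -1.65 to -1.07 and 1.85 to 2.48. Leaving out single libraries gave -1.55 to -1.20 (adjusted p 0.00777 to 0.0228) and 1.85 to 2.40 (adjusted p 0.0201 to 0.0288). miR-19b-3p changed sign with upper-quartile scaling (-0.0042), when Cis-sEV replicate 2 (-0.01) or Ctrl-sEV replicate 3 (-0.19) was left out, in a range of -0.19 to 0.90 when single libraries were left out. Arms of miR-17-92 called higher numbered 0, but 1 with DESeq2, 2 with group weights and 0 to 2 without single libraries (2 without Ctrl-sEV replicate 3, when 32.7% of all tested miRNAs were called higher). Arms of miR-106b-25 called higher numbered 1, but 2 with DESeq2, 2 with group weights and 1 to 2 without single libraries (2 without Ctrl-sEV replicate 1 or 3). The log2 ratio of the miR-17-92 totals moved from -1.0 to -1.36 with TMM factors and to 2.52 without miR-19b-3p and miR-92a-3p, and ranged from -1.08 to -0.86 without single libraries. That of miR-106b-25 moved from 1.63 to 1.23 with TMM factors, and ranged from 1.45 to 1.95. The share differences ranged from -4.99 to -3.97 points for miR-92a-3p and from 17.2 to 29.8 points for miR-25-3p.

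Over all miRNAs, 106 were called (83 higher, 23 lower). A minimum of 30 reads gave 58 (35 higher), limma-voom 43 (30 higher, 13 lower), total reads 11 lower and no filter 14 lower. Without single libraries the count ran from 53 to 169, with 40 to 144 higher and 11 to 30 lower; it was lowest without Cis-sEV replicate 1 and highest without Ctrl-sEV replicate 3. The correlation of deviations from the group means between libraries of the same replicate number was -0.05, -0.18 and -0.02, so the numbers were not taken to pair the samples. With the replicate number as a block, 24 were called (13 higher, 11 lower), miR-92a-3p and miR-25-3p among them, and no library correlated best with its own number. The Ctrl-sEV libraries held 0 to 4 reads each of miR-17-5p, miR-18a-5p and miR-106b-5p, so counting error is wide there, and what limited these calls was not tested. Where an alternative changed a count, the cause was not tested.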

Other observations

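Among the 334 tested miRNAs outside the lists, those whose levels followed each cluster most closely across the 6 libraries were taken by Pearson's r of log2(CPM + 1). The 6 libraries form 2 groups, so r also takes up the difference between the groups, and no p is given. For the miR-17-92 total, these were the predicted miR402-5p of the table (r = 0.991), miR-181a-1-3p (r = 0.990) and miR-7b-5p (r = 0.970), with 9 miRNAs above 0.9. miR-181a-1-3p had 262 to 295 CPM in Cis-sEV and 582 to 822 CPM in Ctrl-sEV, and miR-7b-5p 8.13 to 14.0 against 94.5 to 389 CPM. For the miR-106b-25 total, they were miR-329-3p (r = 0.990), miR-574-3p (r = 0.987) and the predicted miR220-5p (r = 0.979), with 71 miRNAs above 0.9. miR-329-3p had 31.3 to 54.1 CPM in Cis-sEV and 0 to 1.85 CPM in Ctrl-sEV, and miR-574-3p 340.0 to 439 against 136 to 232 CPM.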
